A study of Homo sapiens with 12 samples.

Results

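MEC1 is an established human line of neoplastic B cells, derived from chronic lymphocytic leukemia (CLL), and its RNA was compared between a population with high and a population with low expression of UGT2B17. The 6 MEC1 libraries are 6 of the 12 libraries of the series and were chosen by their labels, 3 of MEC1-2B17 and 3 of MEC1-CTRL. MEC1-2B17 cells had been electroporated with a pcDNA6 vector holding the UGT2B17 coding sequence and were kept in blasticidin. MEC1-CTRL cells carried an shRNA against UGT2B17 and were kept in puromycin, so the arms differed in construct and in antibiotic as well as in UGT2B17, and these cannot be told apart. Whether each population was 1 clone or a pool is not given in the sources used here, and differences between populations that arose before the constructs entered cannot be told apart from the response either. All cells were grown in RPMI medium with serum, and ribosomal RNA was removed before paired-end sequencing. The labels call the 3 samples of an arm replicates, and p-values measure the spread between them. The question was how the expression of genes and pathways differed between the arms in this line alone. Genes on chromosomes 9 and Y were kept in the fit but are set apart from every count of called genes given here. Genes that could not be placed on a chromosome were treated in the same way.

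UGT2B17 belongs to the UDP-glucuronosyltransferases, enzymes of the endoplasmic reticulum that join glucuronic acid from UDP-glucuronate to small lipophilic molecules, which makes them soluble and usually ends their activity. Its substrates include androgens and some drugs. Mature B cells carry a B-cell receptor made of immunoglobulin, present antigen on HLA class II molecules, and respond to interferon, to Toll-like receptor ligands and to prostaglandins, which are made from arachidonic acid.

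Library totals ranged from 31762649 to 37744991 counts, and 22017 to 22217 of the 22441 genes of the table had a count in a library. Replicates of an arm differed by 2.42 to 8.41 in mean chi-square over genes, where counting error would give a value near 1, and libraries of different arms by 32.2 to 40.4. The first principal component, which held 71.6% of the variance, separated the arms. B-cell marker genes, 1 gene of chromosome 9 included, summed to 2560 to 2630 counts per 1000000 counts (CPM) in MEC1-CTRL and to 2350 to 2440 CPM in MEC1-2B17. The sum for T-cell markers went from 130 to 132 CPM in MEC1-CTRL to 115 to 120 CPM in MEC1-2B17, with CD3D, CD4, CD8B and TRBC1 at or below 3 counts in every library or not listed. Myeloid markers summed to 2.36 to 2.81 CPM and 4.67 to 5.32 CPM, and CD33, FCGR1A, MPO, S100A8, S100A9 and CD68 were at that floor or not listed. For fibroblast and epithelial markers the sums were 28.2 to 32.5 CPM and 48.0 to 51.6 CPM, most of it the cadherin CDH1, with COL1A2, COL3A1, DCN, LUM and KRT19 at the floor or not listed. The part of these marker genes in the results was not tested. In bulk RNA, fewer cells of a kind and less RNA per cell cannot be told apart.

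UGT2B17 was 11.8, 10.8 and 10.4 CPM in the MEC1-CTRL libraries and 22.7, 20.6 and 20.1 CPM in the MEC1-2B17 libraries. The arms did not overlap, and the gene was 1.92-fold higher in MEC1-2B17 (log2 fold change 0.94 ± 0.069 SE, adjusted p = 2e-09, edgeR). An exact permutation test of 3 against 3 libraries gives p = 0.1 (two-sided), the smallest it can give. The neighboring and closely related UGT2B15, which can share reads with UGT2B17, was 1.11 ± 0.0815 CPM in MEC1-CTRL and 1.95 ± 0.124 CPM in MEC1-2B17 (SD, n = 3). UGT8, which makes galactosylceramide, was lower by 0.58 on the log2 scale, from 26.9 ± 0.492 to 18.1 ± 1.63 CPM. Of 22 UGT enzymes in the list, 4 were in the table and these 3 passed the filter on low counts. Genes that supply UDP-glucuronate were higher in 3 of 5 tested and lower in none. UGDH, the enzyme that makes UDP-glucuronate, went from 83.4 to 85.4 CPM in MEC1-CTRL to 101 to 104 CPM in MEC1-2B17 (log2 fold change 0.28 ± 0.033). SLC35B1, a transporter of the endoplasmic reticulum, and GUSB, which hydrolyzes glucuronides, were higher by 0.30 and 0.27. These genes and the other members named outside the rule given under the methods were chosen after their values were seen.

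Across the transcriptome the response was broad and mostly small. Of 15596 placed genes tested outside chromosomes 9 and Y, 6384 passed an adjusted p of 0.05, which is 40.9%. MEC1-2B17 was higher for 3217 of them (20.6% of genes tested) and lower for 3167 (20.3%). This split moves with the scaling, and with library size only it was 3031 higher and 3342 lower. More than 2-fold differences numbered 246 higher and 550 lower, and more than 4-fold differences numbered 54 higher and 150 lower. At the other end, 3799 of the called genes (59.5%) differed by 1.3-fold or less, and 265 had arms that overlapped. Of all 15596 genes, called or not, 7726 had arms without overlap. Called genes had a median fold of 1.21 among those higher and 1.27 among those lower, while the median log2 fold change of the 15596 genes was 0.0086.

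Abundant genes were called more often and moved less. When the genes were split into 4 groups of 3899 by average level, 21.5% were called in the group with the lowest level and 55.3% in that with the highest. The most abundant group held 4 genes more than 2-fold higher and 14 more than 2-fold lower, against 141 and 293 in the least abundant. Protein-coding genes were called in 48.6% of 12265 cases and long non-coding RNAs in 23.5% of 2523. Excluding chromosomes 9 and Y, the median log2 fold change of a nuclear chromosome lay between -0.052 (chromosome 13) and 0.056 (chromosome 7).

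**Figure D1:**
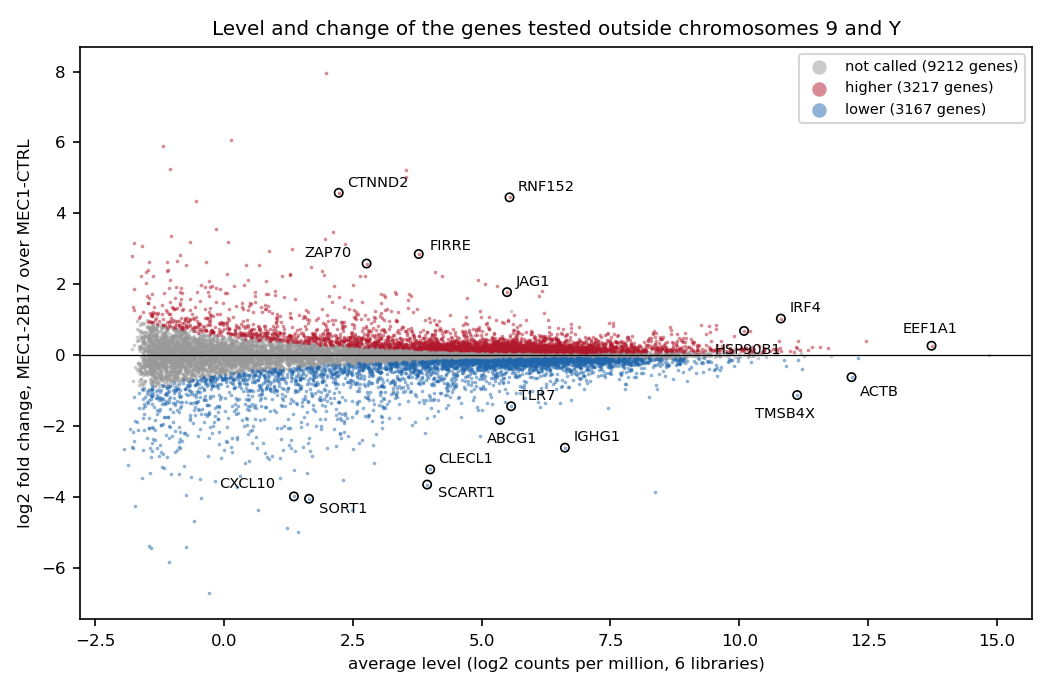
Average level of each gene (x axis, log2 CPM over 6 libraries) against its log2 fold change, MEC1-2B17 over MEC1-CTRL (y axis), for the genes outside chromosomes 9 and Y, with calls at an adjusted p below 0.05 in red (3217 higher) and blue (3167 lower). Large differences lie at low and middle levels, and RNF152, IRF4, IGHG1, TMSB4X and ACTB stand away from genes of similar level.

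The changes described next are those ranked 4 to 13 by the size of the rise or fall. Genes averaging under 1 on the log2 CPM scale and the gene XIST were left aside before ranking. RNF152, a ubiquitin ligase of lysosomes, was 4.21, 4.42 and 3.64 CPM in MEC1-CTRL and 90.9, 88.3 and 89.9 CPM in MEC1-2B17. That is a 21.9-fold rise (log2 fold change 4.45 ± 0.061, adjusted p = 1.7e-19), and the replicates of each arm lay close together. CTNND2, a catenin of cell junctions, went from 0.271 to 0.465 CPM to 8.83 to 9.43 CPM (23.9-fold). EMR1, an adhesion receptor known from macrophages, and KLRC1, an inhibitory receptor of NK cells and some T cells, were higher by 3.47 and 3.28 on the log2 scale. FLT4, a receptor for vascular endothelial growth factors, rose by 2.98, the long non-coding RNA FIRRE of the X chromosome by 2.85, the peroxisomal nucleotide hydrolase NUDT12 by 2.48 and the neonatal Fc receptor FCGRT by 2.36. VWDE rose by 3.13, and ZAP70 is described with the genes of CLL.

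SCART1, a scavenger receptor family gene, showed the steadiest of the large falls, from 27.2, 28.2 and 28.5 CPM in MEC1-CTRL to 2.31, 2.11 and 2.21 CPM in MEC1-2B17. It was 12.6-fold lower (log2 fold change -3.66 ± 0.079, adjusted p = 1.3e-16). SORT1, the sorting receptor sortilin, was 16.7-fold lower, from 5.26 to 6.21 CPM to 0.221 to 0.474 CPM. CLECL1, a C-type lectin-like gene of B cells and dendritic cells, fell by 3.23 on the log2 scale, from 28.7, 26.4 and 30.2 CPM to 3.38, 2.94 and 2.74 CPM. The scaffold kinase gene CASK fell by 3.54, the translation termination factor gene GSPT2 by 3.34, MCC by 3.04, and FNBP1L, whose protein bends membranes, by 2.92. TMEM98 and IGSF3 fell by 3.48 and 3.24, and the tenth gene, the chemokine CXCL10, is described with the interferon response. For none of these genes did the arms overlap, which was part of the rule that chose them.

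Among abundant genes, compared per length as CPM per 1000 bases of exon (RPKM), the 6 largest falls were in TMSB4X, ACTB, HLA-DRA, GAPDH, LCP1 and ACTG1. TMSB4X, which encodes the actin-binding peptide thymosin beta 4, went from 2980, 3040 and 3150 CPM to 1430, 1390 and 1380 CPM, which is a fall by 1.13 on the log2 scale (1800 to 820 RPKM). ACTB fell from 5470 to 5850 CPM to 3450 to 3790 CPM, and ACTG1 and the actin bundling gene LCP1 were lower by 0.32 and 0.39 on the log2 scale. GAPDH was at a log2 fold change of -0.09 with no call in DESeq2 and none without MEC1-CTRL replicate 3 (-0.078) or MEC1-2B17 replicate 2 (-0.043). On the other side, the elongation factors EEF1A1 and EEF2 and 3 histone genes led. EEF2 went from 4840 to 4960 CPM to 6330 to 6540 CPM (0.39 on the log2 scale), and EEF1A1 from 12300 to 12400 CPM to 14700 to 14900 CPM (0.26).

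IRF4 was the remaining gene with a large rise per length. It encodes a transcription factor that drives activated B cells toward plasma cells and is itself set by the dose of receptor signals. Its level was 1170, 1190 and 1170 CPM in MEC1-CTRL and 2380, 2450 and 2370 CPM in MEC1-2B17, a 2.04-fold difference with a standard error of 0.026 on the log2 scale (adjusted p = 1.2e-15).

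**Figure D2:**
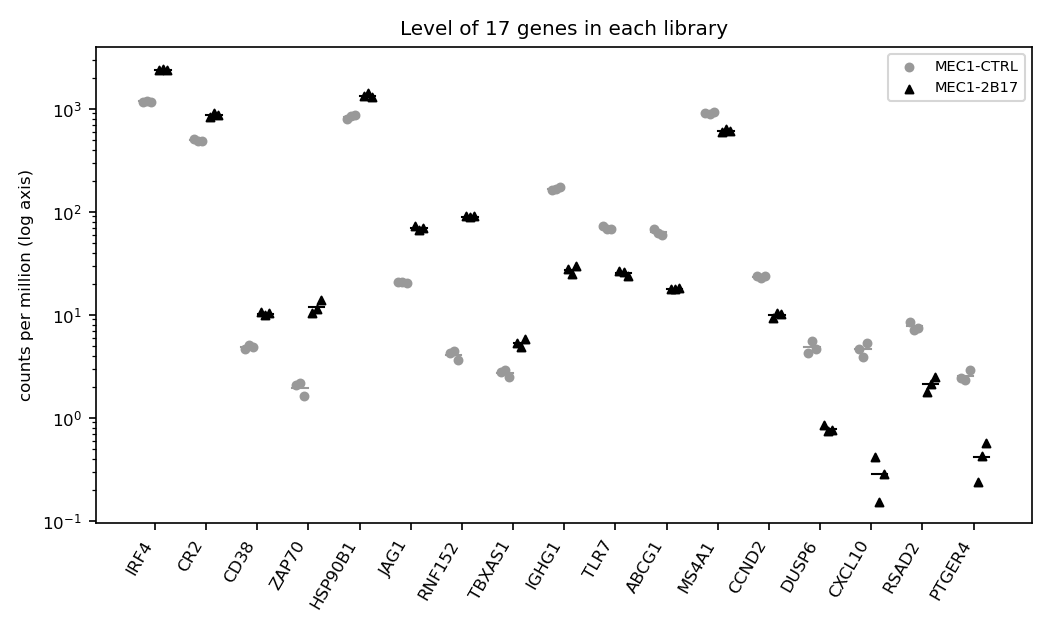
Level in CPM (log axis) of 17 genes in each of the 3 MEC1-CTRL (circles) and 3 MEC1-2B17 libraries (triangles), with short lines at the arm means. The arms were apart for each gene, with IRF4 near 1170 against 2380 CPM and IGHG1 near 168 against 27.5 CPM.

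Genes were next read by pathway, in 40 lists with 4 marker lists beside them. A list is described by how many tested members were higher or lower, to be read against 20.6% and 20.3% of all genes. Those shares rise with level. Of the 3899 genes with the highest level 1156 were higher and 1001 lower, and of the 3899 with the lowest 337 and 500. Lists were not matched for level, so for lists of abundant genes the shares of all genes are too low a background. The lists with the highest shares in 1 direction were the unfolded protein response (77.3% higher), HLA class II presentation (81.0% lower), the type I interferon response (73.5% lower) and sterol synthesis (73.3% lower). Where no member of a list is given as called in a direction by edgeR, DESeq2 called none in that direction either, and at an unadjusted p below 0.05 there were 0 such members, except 2 lower among the genes of UDP-glucuronate supply.

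**Figure D3:**
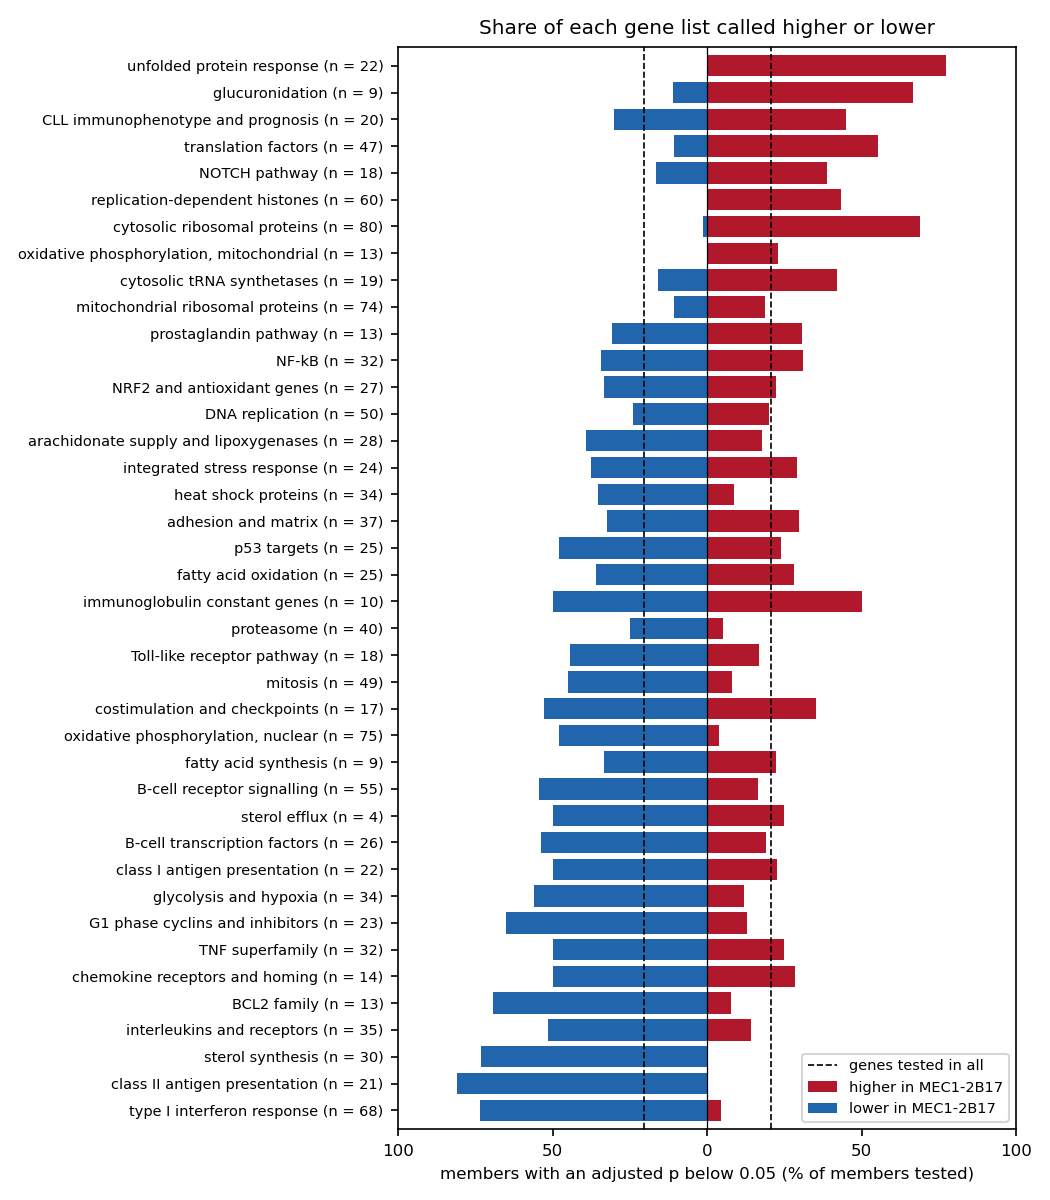
Share of tested members called higher (red, right) or lower (blue, left) in MEC1-2B17 for 40 gene lists, ordered by the median log2 fold change of their members, with the number tested in parentheses. Dashed lines mark the shares of all genes tested, 20.6% and 20.3%, and the longest bars are those of class II presentation to the left and of the unfolded protein response to the right.

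Type I interferon signals through the JAK kinases to a transcription factor complex that binds a repeated GAAA element in the promoters of its targets. Of 50 targets tested, 42 were lower in MEC1-2B17 and 2 higher, the median log2 fold change was -0.51, and 11 of the 42 were more than 2-fold lower. The promoters of the 5 targets with the largest falls among those that hold this element are shown because the fall was shared by so many of its known users. They are RefSeq sequences of GRCh38.p14, written along the gene, and capitals mark the match to GAAANNGAAA, or to its reverse complement, that lies nearest to the start of the gene. The IFIT1 window holds a second match, left in lower case.
CXCL10: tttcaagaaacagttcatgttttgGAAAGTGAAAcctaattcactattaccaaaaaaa
GBP1: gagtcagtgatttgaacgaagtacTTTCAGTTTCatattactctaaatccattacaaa
DDX60L: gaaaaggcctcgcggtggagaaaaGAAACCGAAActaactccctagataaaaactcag
IFIT1: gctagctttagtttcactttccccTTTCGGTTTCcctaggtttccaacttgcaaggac
DDX60: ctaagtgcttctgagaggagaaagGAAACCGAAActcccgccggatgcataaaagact

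The windows lie at chr4:76023685-76023742 (minus strand) for CXCL10, chr1:89065302-89065359 (minus) for GBP1, chr4:168480509-168480566 (minus) for DDX60L, chr10:89392496-89392553 (plus) for IFIT1 and chr4:168318772-168318829 (minus) for DDX60. The element ended 212, 118, 41, 94 and 44 bases before the start of the gene, in that order. Promoters were matched for 9384 of the tested genes, and both strands of the 250 bases before the start were searched. Among the targets with a promoter, 24 of 40 (60%) held the element, against 2.66% of all promoters searched. The list was made of known interferon targets, so this share does not depend on the comparison of arms. By call, 21 of the 34 lower targets and 3 of the other 6 held it. A match is a description of letters and does not show that the site is used.

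CXCL10, a chemokine for activated T cells, was 4.63, 3.86 and 5.30 CPM in MEC1-CTRL and 0.415, 0.153 and 0.284 CPM in MEC1-2B17, or 15.9-fold lower. These MEC1-2B17 values rest on 14, 5 and 9 counts. RSAD2, the antiviral enzyme viperin, went from 7.12 to 8.47 CPM to 1.78 to 2.46 CPM, and IFIT1, which binds foreign RNA, from 9.64 to 11.5 CPM to 3.31 to 4.56 CPM. Abundant targets moved less but in the same direction. MX1, a GTPase that blocks virus replication, was 688, 663 and 654 CPM in MEC1-CTRL and 479, 464 and 461 CPM in MEC1-2B17 (log2 fold change -0.51 ± 0.032), and ISG15, a ubiquitin-like modifier, fell by 0.40. The targets that were higher were ISG20, an RNA exonuclease, which went from 63.7 to 69.9 CPM to 91.6 to 93.2 CPM, and MX2, at a log2 fold change of 0.12. Among 18 receptors and factors, 8 were lower and 1 was higher. The interferon gamma receptor chain IFNGR1 was lower by 1.10 and the lambda receptor chain IFNLR1 by 1.27, while the kinase JAK1 was higher by 0.32. IRF1, IRF3, IRF7 and STAT3 did not pass the test.

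Antigen presentation genes were more often lower than higher in both classes. None of the 21 class II genes tested was higher and 17 were lower, at a median log2 fold change of -0.39. HLA-DMB, a chain of the peptide loading factor, was 43.2, 40.7 and 43.9 CPM in MEC1-CTRL and 23.6, 21.4 and 22.1 CPM in MEC1-2B17. HLA-DOB, which modulates that factor, went from 10.4 to 11.2 CPM to 5.68 to 6.31 CPM. CIITA, the master activator of class II genes, was lower by a smaller step of 0.23, and the invariant chain CD74 was 1330 to 1360 CPM in MEC1-CTRL and 1240 to 1330 CPM in MEC1-2B17, without a call. Reads of HLA genes with near-identical copies can be split between them, so single members are uncertain. For class I, 11 of 22 were lower and 5 higher. The lower members included the immunoproteasome subunit PSMB8, from 160 to 162 CPM to 98.0 to 99.3 CPM, and the peptide transporter TAP1, from 206 to 213 CPM to 138 to 155 CPM. The 5 higher members were the chaperones CALR and CANX, the disulfide isomerase PDIA3, and the peptidases ERAP1 and ERAP2. CANX went from 1480, 1510 and 1550 CPM to 1960, 2060 and 1970 CPM, and ERAP1 from 192 to 194 CPM to 260 to 280 CPM.

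The unfolded protein response raises chaperones of the endoplasmic reticulum when proteins fail to fold there. Of 22 tested members 17 were higher and none lower, the median log2 fold change was 0.27, and HSPA5 and SEC61B were set apart. HSP90B1, the chaperone GRP94, was 799, 849 and 868 CPM in MEC1-CTRL and 1320, 1410 and 1300 CPM in MEC1-2B17, with no overlap (1.60-fold, adjusted p = 2e-11). SDF2L1, a partner of that chaperone system, went from 19.4 to 27.7 CPM to 34.5 to 42.6 CPM. HYOU1, PDIA4 and MANF, which also assist folding there, were higher by 0.59, 0.51 and 0.52. Of the genes that sense the stress or carry the signal on, EIF2AK3, ATF6 and XBP1 were not called, with log2 fold changes of -0.01 to 0.01, and ERN1 was higher by 0.18. An element of CCAAT, any 9 bases and CCACG, known from promoters of such chaperones, was found on either strand in 3 of 21 members with a promoter, against 0.128% of all promoters searched. This share too does not depend on the comparison of arms, since the list was made of known members. By call, 2 of the 16 higher members with a promoter held it, and the remaining holder was not called. The promoters of the higher members that held the element are shown, with the match in capitals as its reverse complement.
HSP90B1: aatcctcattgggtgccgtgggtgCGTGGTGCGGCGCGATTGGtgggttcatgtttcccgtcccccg
CRELD2: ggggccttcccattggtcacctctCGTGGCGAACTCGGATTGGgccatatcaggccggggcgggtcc

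These windows lie at chr12:103930297-103930363 for HSP90B1 and chr22:49918530-49918596 for CRELD2, both on the plus strand, with the element ending 71 and 62 bases before the start. CRELD2, a secreted chaperone-like protein, was higher by 0.26. The neighboring stress lists did not lean the same way. In the integrated stress response, 7 of 24 were higher and 9 lower, and SESN2 and CHAC1, both activated by the factor ATF4, fell by 0.42 and 0.41 while the serine synthesis enzyme PHGDH rose by 0.51. Among heat shock proteins of the cytosol and their helpers, 3 of 34 were higher and 12 lower, with HSPB1 at 25.1 to 26.3 CPM in MEC1-CTRL and 12.3 to 16.3 CPM in MEC1-2B17 and the chaperonin subunit CCT8 higher by 0.42. The antioxidant list had 6 of 27 higher and 9 lower, including HMOX1, the heme-degrading enzyme, which fell by 0.76.

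**Figure D4:**
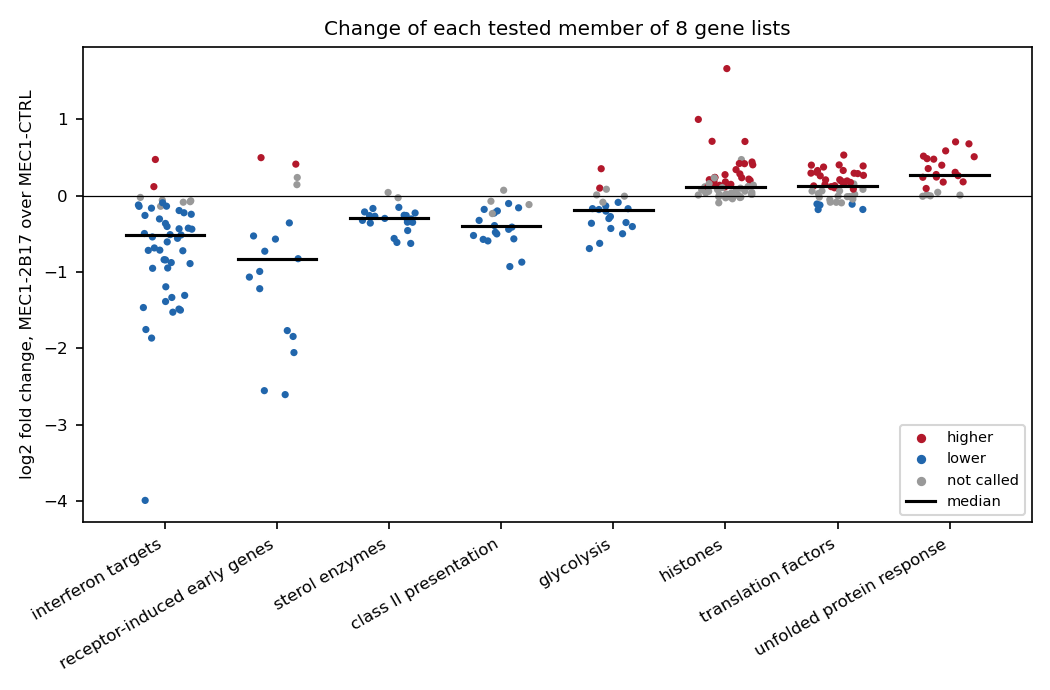
Log2 fold change, MEC1-2B17 over MEC1-CTRL (y axis), of every tested member of 8 gene lists or parts of lists outside chromosomes 9 and Y, colored by call (red higher, blue lower, grey not called), with black lines at the medians. Medians run from -0.83 for early genes induced by the B-cell receptor and -0.51 for interferon targets to 0.27 for the unfolded protein response.

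Sterol synthesis genes are controlled together by the SREBP factors, which are released when membranes lack cholesterol. Of 21 enzymes tested, 19 were lower, 0 higher and 2 without a call (LBR and PMVK), at a median log2 fold change of -0.30 and with no change over 2-fold. Without MEC1-CTRL replicate 3, the median over all 30 genes of the list was -0.16 rather than -0.26, with 19 instead of 22 lower. The fall ran along the whole path. ACAT2, at its first step, went from 72.4, 72.0 and 78.3 CPM to 52.2, 46.6 and 46.8 CPM, FDPS, in the middle, from 368 to 371 CPM to 236 to 263 CPM, and the late enzyme TM7SF2 from 25.4 to 27.4 CPM to 15.4 to 18.6 CPM. SREBF1 was lower by 0.48 and SREBF2 by 0.12. ABCG1, which exports cholesterol and is a target of liver X receptors, was the largest change among sterol genes, at 67.5, 62.6 and 59.9 CPM in MEC1-CTRL and 17.7, 17.8 and 18 CPM in MEC1-2B17 (3.56-fold lower). NR1H3, which encodes a liver X receptor, was higher by 0.27, and NR1H2 lower by 0.18. Their calls were lost without MEC1-CTRL replicate 3 (0.20) and without MEC1-2B17 replicate 2 (-0.125), respectively. A sterol element core, TCACNCCAC, was in none of the 16 enzyme promoters matched, on either strand, against 0.884% of all promoters, which says only that these letters are not in those windows. In fatty acid synthesis 3 of 9 genes were lower, among them the desaturase SCD, and 2 were higher, while in fatty acid oxidation 7 of 25 were higher and 9 lower. EHHADH and PHYH, both peroxisomal, were higher by 0.92 and 0.67.

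Prostaglandins, short-lived lipid mediators made from arachidonic acid, were the class of molecule on which the study's further work centered. The list holds 31 genes, of which 20 were in the table, 13 were tested and 3 more on chromosome 9 (PTGS1, PTGES2 and PTGR1) were set apart. The cyclooxygenase PTGS2 and the receptors PTGER1 and PTGER3 were not listed in the table. Of 9 receptor genes in the list, 4 were in the table and 3 passed the filter on low counts. PTGER2, the EP2 receptor, was not among those 3. Of the 13 genes, 4 were higher and 4 lower, with a median log2 fold change of 0.00, so there was no common direction. PTGER4, the EP4 receptor for prostaglandin E2, showed the largest difference, from 2.45, 2.30 and 2.89 CPM in MEC1-CTRL to 0.237, 0.429 and 0.568 CPM in MEC1-2B17. It was 6.18-fold lower (log2 fold change -2.63 ± 0.23, adjusted p = 2.5e-08), and its level was low in both arms, at 79 to 96 and 8 to 18 counts. PTGIR and TBXA2R, the prostacyclin and thromboxane receptors, were not called, and their arms overlapped.

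Among the enzymes, TBXAS1, thromboxane synthase, was 2.81, 2.88 and 2.50 CPM in MEC1-CTRL and 5.27, 4.87 and 5.80 CPM in MEC1-2B17 (log2 fold change 0.96 ± 0.12). AKR1B1, a reductase that can make prostaglandin F2 alpha, was higher by 0.13. FAM213B, which encodes another prostaglandin F synthase, had a log2 fold change of -0.22 with overlapping arms and a call in edgeR but not in DESeq2. Without replicate 2 or 3 of either arm it was -0.173 to -0.199 and not called. CBR1, a carbonyl reductase, and PTGES3, the cytosolic prostaglandin E synthase, were not called. Of the genes that inactivate prostaglandins, the reductases PTGR2 and ZADH2 were higher by 0.34 and 0.15, and the dehydrogenase HPGD was 2.50 to 2.63 CPM in MEC1-CTRL and 2.96 to 3.50 CPM in MEC1-2B17, without a call (adjusted p = 0.08). Both transporters tested were lower, the exporter ABCC4 by 0.18 and SLCO4A1 by 0.35.

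Genes that supply arachidonic acid or turn it into leukotrienes were lower more often than higher, 11 against 5 of 28. The desaturases that make arachidonic acid were both lower, FADS1 at 255, 249 and 270 CPM against 191, 182 and 186 CPM and FADS2 at 395, 408 and 425 CPM against 292, 264 and 296 CPM. Of the enzymes that attach coenzyme A to it, ACSL4, which prefers arachidonic acid, and ACSL3 were lower by 0.54 and 0.32, ACSL6 was higher by 0.71 from about 1 CPM, and ACSL1 and ACSL5 were not called. The acyltransferases LPCAT3, MBOAT1 and MBOAT2, which put fatty acids into membrane lipids, were lower by 0.37, 0.30 and 3.94, the last from 23 to 47 counts to 0 to 5 counts. Monoglyceride lipase, MGLL, which can release arachidonic acid, went from 58.8, 55.6 and 58.9 CPM to 31.2, 27.7 and 29.7 CPM. Phospholipases that release it were higher where they differed, PLA2G6 by 0.26, PLA2G16 by 0.69 and PLA2G4A by 0.23, the last without a call in DESeq2. PLA2G4A also lost its call without MEC1-CTRL replicate 1 (0.21) or 2 (0.19) or MEC1-2B17 replicate 1 (0.157).

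On the leukotriene branch, ALOX5, the 5-lipoxygenase, was 6.94, 6.97 and 6.93 CPM in MEC1-CTRL and 2.16, 1.44 and 2.33 CPM in MEC1-2B17, or 3.51-fold lower. Its partner ALOX5AP went from 48.9 to 55.9 CPM to 32.2 to 34.1 CPM, and CYSLTR1, a receptor for cysteinyl leukotrienes, from 32.7 to 34.6 CPM to 19.4 to 22.9 CPM. LTA4H, which makes leukotriene B4, was higher by 0.37, and the receptors for that leukotriene, LTB4R and LTB4R2, were not called.

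**Figure D5:**
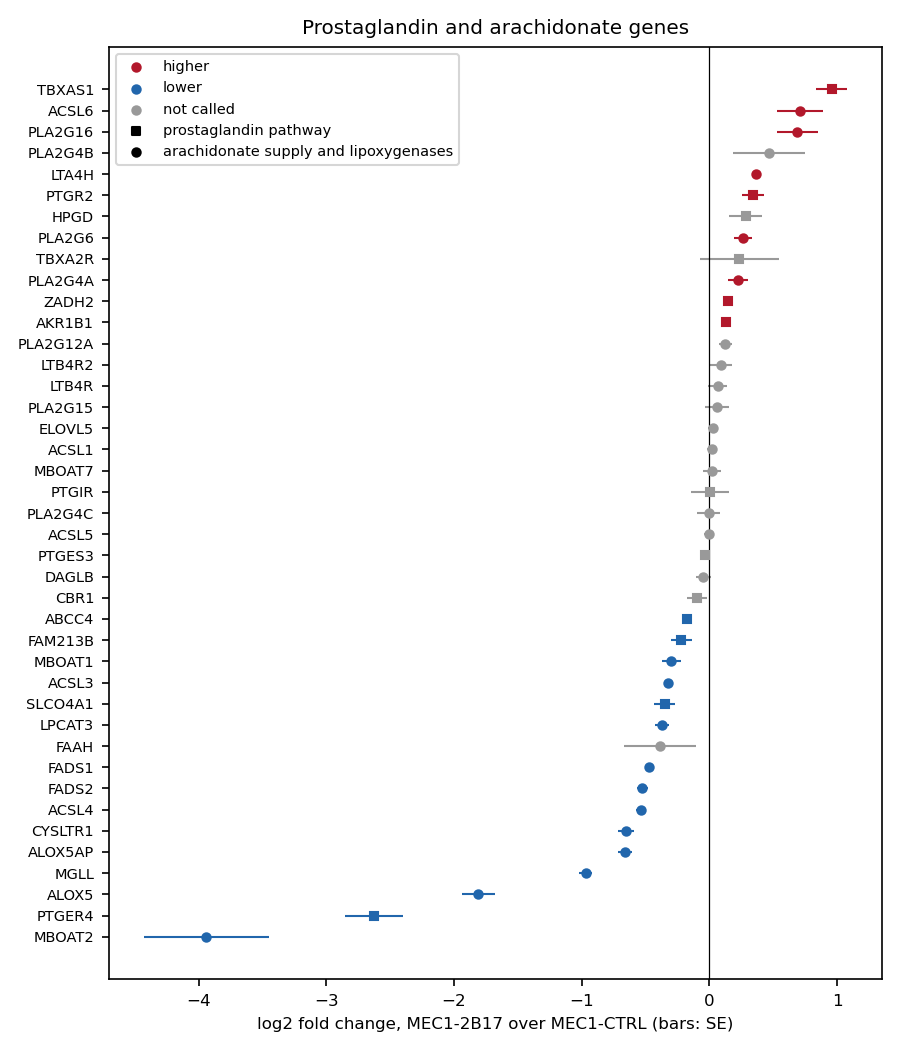
Log2 fold change with its SE (x axis), MEC1-2B17 over MEC1-CTRL, of the 13 prostaglandin genes (squares) and 28 arachidonate and lipoxygenase genes (circles) tested, colored by call. MBOAT2, PTGER4 and ALOX5 have the largest falls and TBXAS1 the largest rise, and most other genes lie within 1 log2 unit of 0.

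The B-cell receptor signals through kinases and adaptors to a set of early genes. Of the 17 early genes tested, 13 were lower and 2 higher, at a median log2 fold change of -0.83, and 7 were more than 2-fold lower. DUSP6 and DUSP4, phosphatases that are induced by the MAP kinases they switch off, led. DUSP6 was 4.23, 5.52 and 4.67 CPM in MEC1-CTRL and 0.859, 0.735 and 0.757 CPM in MEC1-2B17 (6.09-fold lower), and DUSP4 went from 11.3 to 13.3 CPM to 1.56 to 2.58 CPM. The transcription factor genes FOS, EGR1, EGR2 and EGR3 fell by 2.06, 1.77, 1.84 and 1.22 on the log2 scale. MYC moved the other way, from 288, 298 and 296 CPM to 420, 397 and 429 CPM (log2 fold change 0.50), as did IER3 with 0.41. Among 28 kinases and adaptors 12 were lower and 4 higher, the latter including PIK3R5, a regulatory subunit of PI3 kinase gamma, from 30.4 to 31.2 CPM to 59.9 to 63.5 CPM. BTK, LYN, BLNK and PRKCB did not pass the test, and SYK was set apart. Of 10 receptor and co-receptor genes, the complement receptor CR2 was higher, at 513, 488 and 483 CPM against 833, 908 and 875 CPM, and the inhibitory receptor FCGR2B and the phosphatase PTPRC were lower by 1.21 and 0.81.

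All 10 immunoglobulin constant genes tested were called, 5 in each direction. DESeq2 called 9, and 8 were called without MEC1-2B17 replicate 1. In both cases IGHE, with 0.232 to 0.289 CPM in MEC1-CTRL and 0.473 to 0.592 CPM in MEC1-2B17, had lost its call (adjusted p = 0.092 and 0.056). IGHG1 was 162, 168 and 174 CPM in MEC1-CTRL and 27.5, 24.7 and 29.9 CPM in MEC1-2B17 (6.13-fold lower), and IGHG3 fell by 2.09. These gamma genes are near-identical, so reads may be split among them. The genes upstream in the locus were higher, IGHM from 885 to 956 CPM to 1350 to 1510 CPM and IGHD from 2.55 to 3.43 CPM to 6.99 to 7.32 CPM. IGHE, on the other side of IGHG1 and IGHG3, was higher too, and the 8 heavy chain genes split into 4 higher and 4 lower. The kappa gene IGKC was higher by 0.85.

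Of 26 B-cell transcription factors, 14 were lower and 5 higher. Beside the rise of IRF4, PRDM1, the factor of plasma cells, fell from 2.38 to 2.52 CPM to 0.827 to 1.01 CPM, and BCL6, the factor of germinal centers, from 3.89 to 4.42 CPM to 1.68 to 2.46 CPM. LEF1, which is high in CLL cells, was higher by 0.74. Among the genes that define or grade CLL, 9 of 20 were higher and 6 lower. ZAP70, a kinase whose presence marks aggressive CLL, was 2.10, 2.15 and 1.63 CPM in MEC1-CTRL and 10.3, 11.4 and 13.8 CPM in MEC1-2B17 (5.99-fold higher, adjusted p = 1.3e-11). CD38, another marker of that kind, was 4.66, 5.11 and 4.88 CPM against 10.6, 9.83 and 10.4 CPM. TCL1A, an oncogene of B cells, had 19, 24 and 18 counts in MEC1-CTRL and 0, 0 and 1 in MEC1-2B17, and was at least 6.34-fold lower against a floor of 3 counts per library. T-cell markers, which are given beside ZAP70, were called in both directions. TRAT1, an adaptor of the T-cell receptor, had 2, 0 and 1 counts in MEC1-CTRL and 283, 258 and 243 in MEC1-2B17, at least 93.2-fold higher against the floor. Of the other 5 T-cell markers tested, CD247 was higher by 1.22, CD28, TRAC and LCK were lower by 1.68, 0.70 and 0.16, and TRBC2 was not called. Without MEC1-2B17 replicate 2, LCK was at -0.118 and not called.

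B-cell surface markers were not uniform either, with 3 of 9 higher and 4 lower. MS4A1, which encodes CD20, was 907, 897 and 930 CPM in MEC1-CTRL and 595, 632 and 602 CPM in MEC1-2B17, and the scaffold gene BANK1 went from 46.0 to 50.8 CPM to 18.8 to 19.6 CPM. CD79B was lower by 0.12. The signalling chain CD79A, the inhibitory lectin CD22 and the kinase BLK were higher by 0.28, 0.36 and 0.41.

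Receptors for cytokines and microbial ligands were more often lower. Of 35 interleukin and receptor genes 18 were lower and 5 higher, and of 32 genes of the TNF superfamily 16 were lower and 8 higher. The largest change in the first list was a rise, that of IL12RB2, a chain of the interleukin 12 receptor, from 0.947, 0.61 and 0.512 CPM to 23.5, 22.7 and 22.6 CPM (32.6-fold). BAFF, encoded by TNFSF13B, a survival factor for B cells, was 9.36, 7.84 and 6.90 CPM in MEC1-CTRL and 3.85, 4.32 and 3.78 CPM in MEC1-2B17. All 3 of its known receptors were lower, TNFRSF17 by 0.97, TNFRSF13B by 0.43 and TNFRSF13C by 0.41 on the log2 scale. TNFRSF18 was lower by 2.00, and TNFRSF1A, the main receptor for TNF, was higher by 1.28, from 1.92 to 2.63 CPM to 4.93 to 5.51 CPM. TLR7, a sensor of single-stranded RNA on the X chromosome, was 72.0, 68.2 and 67.5 CPM in MEC1-CTRL and 26.5, 25.8 and 23.8 CPM in MEC1-2B17 (2.73-fold lower), and its neighbor TLR8 fell by 1.41. TLR1 and the adaptor kinase IRAK2 were higher by 0.34 and 0.49, within a list of 18 with 8 lower and 3 higher. In the NF-kB list, 10 of 32 genes were higher and 11 lower. PLEK, a substrate of protein kinase C, rose by 0.66, and TNFAIP2 and the chemokine CCL4 fell by 1.28 and 1.11. Of 17 costimulatory and checkpoint genes 9 were lower and 6 higher, led by CD28, from 7.03 to 8.04 CPM to 2.13 to 2.55 CPM, and by HAVCR2, the checkpoint receptor TIM-3, which rose by 0.70.

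Adhesion and homing genes changed without a common direction, 11 of 37 higher and 12 lower. The matrix genes FN1 and FBN1, fibronectin and fibrillin 1, fell by 2.62 and 1.67 on the log2 scale, and the integrin chain ITGAM, also a myeloid marker, rose by 1.58 from 1.14 to 1.42 CPM to 3.76 to 4.07 CPM. LAMB2, a laminin chain, rose by 3.19 from 0.0789 to 0.151 CPM. The epithelial cadherin CDH1, which B-cell lines can express, was 26.5, 28.3 and 24.8 CPM against 43.1, 45.9 and 44.6 CPM. Of 14 chemokine receptors and homing genes, 7 were lower and 4 higher. CXCR3, the receptor for CXCL10, went from 10.5 to 13.6 CPM to 4.32 to 5.12 CPM, CCR1 fell by 3.36 to between 0 and 5 counts, and the scavenging receptor ACKR3 rose by 0.65. NOTCH genes were more often higher, 7 of 18 against 3 lower. JAG1, a NOTCH ligand, was 20.6, 20.6 and 20.1 CPM in MEC1-CTRL and 72.7, 67.0 and 70.2 CPM in MEC1-2B17 (3.42-fold higher), and the ligand DLL4 rose by 1.62 from low levels.

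Genes of the cell cycle and of survival follow. Of 23 genes of the G1 phase, 15 were lower and 3 higher. All 3 D cyclins, which start the cycle with CDK4 and CDK6, were lower, CCND2 at 23.9, 22.8 and 23.8 CPM against 9.33, 10.4 and 10.1 CPM, CCND1 from 12.8 to 15.2 CPM to 5.75 to 6.02 CPM, and CCND3 by 0.31 on the log2 scale. The inhibitors fell with them, 4 of 4, with CDKN1A, encoding p21, at 67.4, 70.7 and 76.1 CPM against 39.1, 37.9 and 38.1 CPM. CDKN1A is also a p53 target, and in that list 12 of 25 were lower and 6 higher, with SESN3 lower by 2.21 and MDM2 higher by 0.29. In mitosis 22 of 49 genes were lower and 4 higher, no change reaching 2-fold, with the spindle gene PRC1 from 200 to 201 CPM to 157 to 162 CPM and the proliferation marker MKI67 lower by 0.27. PLK1 and CCNB1 were not called. For DNA replication 10 of 50 were higher and 12 lower, near the shares of all genes, which are not matched for level. The licensing factor CDT1 rose most, by 0.52. Replication-dependent histone genes, which are copied in S phase and lack poly(A) tails, were higher in 26 of 60 and lower in none, with a median log2 fold change of 0.12. Without MEC1-2B17 replicate 1, 20 were higher and 2 lower (median 0.08). HIST1H4C went from 366 to 387 CPM to 497 to 510 CPM and HIST2H3D from 44.2 to 62.1 CPM to 89.9 to 113 CPM. Such genes are near-identical copies, so single members are uncertain. Of 13 BCL2 family genes 9 were lower and 1 higher, on both sides of the balance, 4 of 5 survival genes and 5 of 8 death genes. MCL1 and the death activator BMF were lower by 0.24 and 0.53, BCL2L11, encoding BIM, was higher by 0.27, and BCL2 was not called.

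Translation and energy genes moved in small steps. Translation factors were higher in 26 of 47 and lower in 5, the helicases EIF4A3 and EIF4A2 by 0.53 and 0.40. For cytosolic ribosomal proteins, 55 of 80 were higher and 1 lower, all within 0.27 on the log2 scale, and mitochondrial ribosomal proteins had 14 of 74 higher and 8 lower. Cytosolic tRNA synthetases were higher in 8 of 19 and lower in 3. Proteasome genes were lower in 10 of 40 and higher in 2, the largest falls being the immune subunits PSMB8 and PSMB9. Nuclear genes of oxidative phosphorylation were lower in 36 of 75 and higher in 3, with a median log2 fold change of -0.10. COX7B, a subunit of complex IV, was 152, 147 and 156 CPM against 115, 113 and 116 CPM. The mitochondrial genes of the same complexes were higher in 3 of 13 and lower in none, and their summed level was 7770 CPM in MEC1-CTRL and 7860 CPM in MEC1-2B17. Of 21 glycolysis genes 15 were lower and 2 higher. TPI1, PGK1 and LDHA, enzymes of the middle and end of the path, were lower by 0.43, 0.40 and 0.36, and HK1, which starts it, went from 48.7, 50.7 and 53.4 CPM to 33.4, 30 and 31.2 CPM. Of 13 genes of the hypoxia response, 4 were lower and 2 higher, and P4HA2, a collagen prolyl hydroxylase, fell by 1.15.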

How the data were processed

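Total RNA of 6 MEC1 libraries was sequenced. Per the labels and methods, the authors trimmed reads with Trimmomatic, aligned them to hg38 with TopHat2 2.0.14 and counted them per Ensembl gene with HTSeq. The deposited raw counts, without normalization, were used; the authors' fold changes, p-values and 6 columns of normalized values were not. The sequencing site of each sample and use of strand in counting are not given in the sources used here. The MEC1 table lists 22441 genes, each with at least 10 counts over 6 libraries, and 21798 were placed by GENCODE v44 (GRCh38).

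Arms were compared with edgeR 4.0.16 in R 4.3.3 (TMM, filterByExpr at its defaults, 10 counts per library and 15 in total, quasi-likelihood F-test). P-values were adjusted by Benjamini-Hochberg over all 16581 genes tested, of which 634 lie on chromosome 9, 19 on Y and 332 were not placed. Genes of these groups were left out of the 15596 genes behind the counts and shares. CPM use TMM library sizes. Standard errors come from the F statistic, and a floor of 3 counts covers counting error only.

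Members and lists were chosen with earlier results of these data known. Named genes are the UGT genes, all tested prostaglandin and arachidonate genes, up to 4 called members of each other list (at most 2 per direction, by size), ranks 4 to 13 by rise and by fall (average log2 CPM of at least 1, arms apart), the 6 largest rises and falls in RPKM of protein-coding genes, and markers. Tested on simulated data, 66 of 100 genes changed 1.3-fold and 87 of 100 changed 2-fold were recovered, with 12 false calls among 16581 genes. No other gene was changed in the simulation, a far smaller share than the 40.9% called in the data. Recovery and false calls in the data may therefore differ. Alternatives were DESeq2 1.42.0, both tools together, RLE scaling, library size only, no filter, 10 counts in every library, a replicate block and each replicate left out. Both tools together means a call in DESeq2 and in the exact test of edgeR, not in its F-test. Promoters came from RefSeq (GRCh38.p14).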

Additional observations from a re-analysis of the deposited data

How the results depend on the processing

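Under 13 alternatives no called gene among the 228 chosen by the rule under the methods reversed its direction. Genes named outside that rule were not part of this check. The number of genes changed was 6384 and ranged from 5224, with both tools required, to 6450, without a filter. Of the values of named genes, 59 lost their call and 4 gained one, among them FAM213B, PLA2G4A, IGHE, IL23A, PDGFRB and GAPDH with DESeq2, against 2872 on the same side of the threshold. Of the list counts, 14 differed by more than 1.5 times and 558 did not. Requiring both tools, with the exact test of edgeR in place of the F-test, left 36 cytosolic ribosomal proteins of 56 and 7 tRNA synthetases of 11. DESeq2 alone called 56 and 11, as many as the F-test. With library size only, 19 proteasome genes were called instead of 12, 17 of them lower. Leaving out 1 replicate gave 6 to 14 tRNA synthetases, 6 without MEC1-CTRL replicate 2 and 7 without MEC1-CTRL replicate 1 or MEC1-2B17 replicate 1. Of the 2 myeloid markers called, 1 was left with DESeq2, with both tools, without a filter and with the replicate block, and 1 or 2 with a replicate left out, 1 without replicate 1 or 3 of either arm; the marker lost in the named alternatives was CSF1R. The cause was not tested in these cases.

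The sources name no pairing of samples by replicate number. Deviations of same-numbered libraries correlated at -0.139 to 0.119 over 11462 genes and those of other numbers at -0.115 to 0.22. With 3 libraries per arm, these values cannot show whether same-numbered samples were paired. With the replicate number as a block, 6370 genes changed, 3205 higher and 3165 lower. The median log2 fold change of all 16581 genes tested, chromosomes 9 and Y included, was 0.00259 with TMM, 0.00467 with RLE and -0.0076 with library size only. Depth limits genes of low level, where a 2-fold difference could be missed.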
